A study of Mus musculus with 12 samples.

Results

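The 41 genes described here encode proteins of DNA replication and cell division, and their RNA was followed in mouse embryonic stem cell-derived neural cultures and in embryonic brain tissue. They were chosen by symbol from the gene names that the array files pair with the probes. All 41 were among the 25746 genes measured, and 1 value per gene was taken from its brightest probe. They fall into 11 S-phase genes, which license or carry out DNA synthesis, 4 regulators of the G1/S transition or of replication control, and 26 genes of G2 and mitosis.

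The study grew neurons from mouse embryonic stem cells of the 129/Ola background (male) for 16 days in a chemically defined medium, and set them beside tissue of E15 Sv129s6 embryos of mixed sex. Every culture received the Wnt inhibitor 53AH at 2.5 µM and the BMP inhibitor LDN193189 at 0.25 µM from day 0, so that no culture was free of them. In WiBi_0-11 the labels give both inhibitors until day 11 and name no later agent, and in WiBi_0-16 they give them until day 16. By their names, the inhibitors were followed by the Wnt agonist CHIR from day 8 to day 16 in CHIR_8-16 and from day 11 to day 16 in CHIR_11-16. For CHIR_8-16 the culture description counts 7 days with inhibitors ahead of the agonist, so that its first day is uncertain by 1 day. The dose of CHIR, a compound that activates Wnt signalling by inhibiting the kinase GSK3, is stated as 3 µM for the day 8 cultures only. Each of the 4 culture groups had 2 arrays, and cortex, hippocampus, ventral telencephalon and midbrain had 1 array each. RNA of 3 sets of experiments was pooled, and it is not stated whether the 2 arrays of a group came from separate pools, so that p-values measure the spread between arrays, which may be technical.

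A dividing cell copies its DNA in S phase and separates the copies in mitosis, and the RNAs for both tasks are made in waves. At the end of G1, cyclin E and CDK2 release E2F factors from the retinoblastoma protein, and E2F then drives genes of licensing and synthesis such as the Mcm helicase subunits, Cdc6 and Pcna. Later MuvB complexes with B-MYB and FOXM1 switch on the genes of G2 and mitosis through the CHR element and neighbouring CCAAT boxes. In the developing forebrain radial glia and intermediate progenitors are among the dividing cells that make these RNAs, whereas neurons leave the cell cycle for good. In RNA from whole cultures, fewer dividing cells and less of an RNA per dividing cell cannot be told apart.

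The promoters of the members carried these words unevenly. Of the 41 genes, 35 had an entry in the RefSeq promoter table (GRCm38.p6; 250 bases before to 50 after the start), which held none for Mcm4, Gmnn, Ccna2, Aurkb, Tpx2 and Kif20a. An E2F word (written TTCGCGC on either strand, or with its middle letters changed to give TTCCCGC, or to give TTGGCGC, or else to give TTGCCGC) stood in a promoter of 7 of 10 S-phase genes, of 3 of 22 G2 and mitosis genes and of 10.9% of all 27025 genes in the table, a gene with 2 entries (Mcm7, Ect2 and Prc1 among the members) counting once. A CHR word (TTTGAA or TTCGAA, either strand) stood in those of 2 of 10 S-phase and 16 of 22 G2 and mitosis genes, against 21.7% of all genes. The CCAAT word, on either strand, stood in 7 of 10 and in 19 of 22, against 41.1% of all, and the same 16 of 22 G2 and mitosis genes had both CHR and CCAAT, against 9.65% of all. The reverse of TTGGCGC can share letters with CCAAT, and a match is a description of letters and not of a bound site. The 170 bases before the start are shown for 3 S-phase and 3 mitotic genes whose RNA levels are given in the following paragraphs, with E2F, CHR and CCAAT words in capitals.
Mcm5, chr8:75109339-75109508, plus strand: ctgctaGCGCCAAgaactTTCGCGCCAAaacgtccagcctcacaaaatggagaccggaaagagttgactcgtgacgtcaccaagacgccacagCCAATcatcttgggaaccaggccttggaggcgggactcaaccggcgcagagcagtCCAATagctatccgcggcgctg
Mcm6, chr1:128359706-128359875, minus strand: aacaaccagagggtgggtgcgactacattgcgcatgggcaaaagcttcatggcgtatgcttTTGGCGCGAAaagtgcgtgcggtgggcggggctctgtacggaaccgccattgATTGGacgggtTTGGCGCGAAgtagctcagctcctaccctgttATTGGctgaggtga
Cdc6, chr11:98907981-98908150, plus strand: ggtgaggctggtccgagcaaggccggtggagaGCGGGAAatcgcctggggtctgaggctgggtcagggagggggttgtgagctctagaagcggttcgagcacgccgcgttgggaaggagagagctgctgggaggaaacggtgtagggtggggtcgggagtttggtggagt
Ccnb2, chr9:70421555-70421724, minus strand: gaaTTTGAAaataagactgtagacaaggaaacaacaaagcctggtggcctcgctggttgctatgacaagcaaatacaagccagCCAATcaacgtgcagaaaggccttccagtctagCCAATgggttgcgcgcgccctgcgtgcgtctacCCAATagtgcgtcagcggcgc
Top2a, chr11:99024190-99024359, minus strand: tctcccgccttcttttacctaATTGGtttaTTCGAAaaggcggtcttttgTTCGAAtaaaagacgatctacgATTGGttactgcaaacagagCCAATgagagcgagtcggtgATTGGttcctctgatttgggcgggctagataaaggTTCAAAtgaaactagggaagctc
Mki67, chr7:135716380-135716549, minus strand: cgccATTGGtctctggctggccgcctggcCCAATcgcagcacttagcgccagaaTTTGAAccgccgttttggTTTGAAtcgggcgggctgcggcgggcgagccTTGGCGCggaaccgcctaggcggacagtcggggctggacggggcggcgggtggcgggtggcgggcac
The Mcm5 window shows E2F words in its far part and CCAAT nearer the start, Mcm6 holds 2 pairs of overlapping E2F words, and Cdc6 holds 1 E2F word and no CCAAT. The Top2a window holds 3 CHR words among 4 CCAAT words. Mki67, the gene of the Ki-67 antigen, holds both CHR and E2F words, and Ccnb2 holds 3 CCAAT words upstream and a CHR word at each side of them, of which the one at position 4 after the start lies outside the letters shown.

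Values are log2 of the processed signal minus log2 of the 75th percentile of the same array, so 0 is the 75th percentile of that array's spots and a difference of 1 is a 2-fold change. Values of different genes come from different probes and are not set against each other. The 75th percentile ran from 629 to 1130 over the 12 arrays, and 59.1% to 71.2% of spots were well above background. Of the members, 39 were well above background on all 12 arrays. Brca1 was so on 5 of 12 arrays and Aurkb on 9 of 12. These 2 passed the filter on dim signals only through CHIR_11-16, the 1 group in which both of their arrays were well above background. It was also the group where they read highest, so that counts over all 41 members hold 2 that the filter favoured to be high there. Without them the counts of higher and lower members among the other 39 were 39 and 0 in CHIR_11-16 minus WiBi_0-11, CHIR_11-16 minus WiBi_0-16, CHIR_8-16 minus WiBi_0-16 and agonist minus inhibitor-only, with medians of 0.47, 0.85, 0.45 and 0.46. They were 1 and 38 in WiBi_0-16 minus WiBi_0-11, 2 and 37 in CHIR_8-16 minus CHIR_11-16 and 27 and 12 in CHIR_8-16 minus WiBi_0-11, with medians of -0.32, -0.40 and 0.13. The arrays of replicate 1 lay on 1 slide (slide 2) and those of replicate 2 on another (slide 3), and both slides held all 4 culture groups. All 13 neuron markers measured and all 12 radial glia markers were well above background on every culture array. The pluripotency genes Pou5f1 and Zfp42 had no probe that passed the filter on dim signals, although the 6 other listed pluripotency genes were well above background.

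Cell cycle RNAs were highest in the cultures that received the Wnt agonist from day 11 and lowest in those kept in inhibitors to day 16. CHIR_11-16 had the highest group mean for 39 of 41 members, where 19.9% of all genes peaked in that group. Brca1 and Aurkb, which passed the filter only through that group, are among these 39. WiBi_0-16 had the lowest mean for 40 of 41, against 28.0% of all genes, and Cenpf, a kinetochore protein gene, was the exception. The median over the members was 2.04 and 1.95 on the 2 arrays of CHIR_11-16, 1.53 and 1.42 in CHIR_8-16, 1.26 and 1.67 in WiBi_0-11, and 0.71 and 1.33 in WiBi_0-16 (replicate 1 then 2, as in every such pair of values). The highest medians were thus those of CHIR_11-16 on both slides, and the lowest was WiBi_0-16 replicate 1. That array held the lowest culture value for 38 members and 19.0% of all genes, the largest share of any of the 8 arrays. Without it, WiBi_0-16 stayed lowest for 28 of 41 members and CHIR_11-16 stayed highest for 38. The full order CHIR_11-16, CHIR_8-16, WiBi_0-11, WiBi_0-16 held for 25 members, and 13 differed from it only in having WiBi_0-11 above CHIR_8-16.

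**Figure D1:**
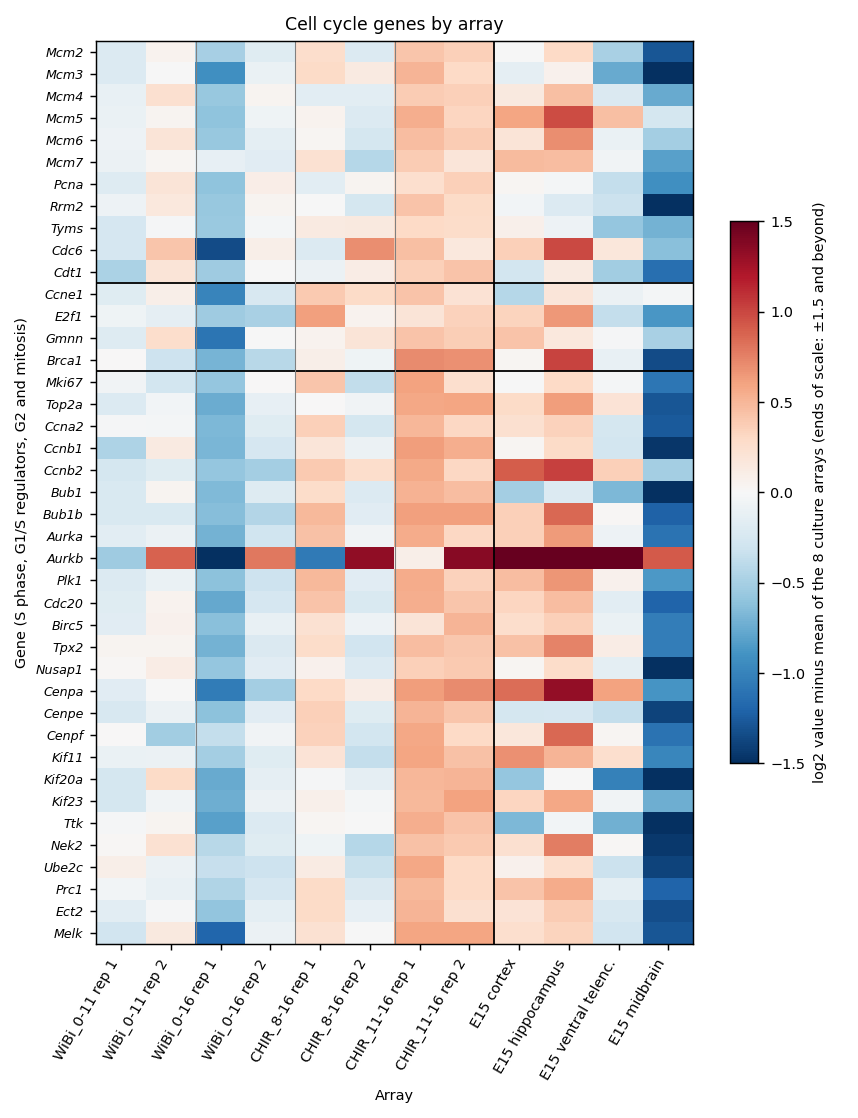
Each row is a member gene and each column an array; colour is the log2 value minus the mean of the 8 culture arrays, and black lines part the 3 gene sets and the embryonic tissues. The CHIR_11-16 columns are mostly red, WiBi_0-16 replicate 1 and the E15 midbrain are mostly blue, and Aurkb follows the slide rather than the group.

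Among the S-phase genes, the 6 subunits of the Mcm2-7 helicase, which is loaded on origins in G1 and unwinds DNA in S phase, all had their highest mean in CHIR_11-16. The probe of Mcm2 (chr6:88833619-88833678, minus strand, mm9) read 1.48 and 1.74 in WiBi_0-11, 1.19 and 1.50 in WiBi_0-16, 1.95 and 1.48 in CHIR_8-16, and 2.10 and 2.05 in CHIR_11-16. Both CHIR_11-16 arrays lay above the other 6, and CHIR_8-16 replicate 2 fell among the inhibitor-only arrays. Mcm4, another subunit, read 2.86 and 3.21 in WiBi_0-11, 2.41 and 3.01 in WiBi_0-16, 2.81 and 2.81 in CHIR_8-16, and 3.35 and 3.33 in CHIR_11-16. For Mcm4 it was CHIR_8-16 that lay below both WiBi_0-11 arrays. Mcm5 read 1.53 and 1.67 in WiBi_0-11, 1.03 and 1.56 in WiBi_0-16, 1.68 and 1.42 in CHIR_8-16, and 2.17 and 1.95 in CHIR_11-16. Mcm6 read 3.65 and 3.92 in WiBi_0-11, 3.15 and 3.58 in WiBi_0-16, 3.76 and 3.47 in CHIR_8-16, and 4.19 and 4.10 in CHIR_11-16. Both CHIR_11-16 arrays of these 2 genes lay above the other 6 arrays, as did those of Mcm2, whose promoter held no E2F word. Mcm7 had means of 3.59 ± 0.03 (SD, n = 2) in WiBi_0-16 and 4.02 ± 0.15 in CHIR_11-16. The group means of Mcm3 ran from 2.55 ± 0.58 (SD, n = 2) in WiBi_0-16 to 3.47 ± 0.15 in CHIR_11-16, with 3.28 ± 0.11 in CHIR_8-16. Mcm3 was the only Mcm gene whose 4 agonist arrays all lay above its 4 inhibitor-only arrays.

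Cdc6 and Cdt1 load the helicase on origins. Cdc6 read -2.56 and -1.89 in WiBi_0-11, -3.64 and -2.22 in WiBi_0-16, -2.51 and -1.60 in CHIR_8-16, and -1.85 and -2.14 in CHIR_11-16. In 3 of the 4 groups the slide 3 array was the higher, WiBi_0-16 replicate 1 was the lowest of the 8, and its range of 2.04 over the 8 cultures was the second largest among the members. Cdt1 had means of 2.19 ± 0.47, 2.06 ± 0.38, 2.34 ± 0.14 and 2.72 ± 0.05 (SD, n = 2) in WiBi_0-11, WiBi_0-16, CHIR_8-16 and CHIR_11-16. Both CHIR_11-16 arrays were above all others for this gene.

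Pcna encodes the sliding clamp of the replication fork, Rrm2 the regulated subunit of ribonucleotide reductase, and Tyms thymidylate synthase. Pcna read 4.70 and 5.08 in WiBi_0-11, 4.29 and 4.99 in WiBi_0-16, 4.73 and 4.92 in CHIR_8-16, and 5.14 and 5.25 in CHIR_11-16. Rrm2 read 3.78 and 4.02 in WiBi_0-11, 3.29 and 3.90 in WiBi_0-16, 3.85 and 3.59 in CHIR_8-16, and 4.29 and 4.14 in CHIR_11-16. In both genes CHIR_11-16 was above every other array, but by less than the gap between the 2 arrays of WiBi_0-16. Tyms had means of -1.82 ± 0.25 (SD, n = 4) in the inhibitor-only arrays and -1.40 ± 0.08 in the agonist arrays, and these did not overlap.

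Of the 4 G1/S regulators, Ccne1 and E2f1 departed from the order of the helicase genes. Ccne1, the gene of cyclin E1, read 0.95 and 1.23 in WiBi_0-11, 0.14 and 0.89 in WiBi_0-16, 1.53 and 1.42 in CHIR_8-16, and 1.56 and 1.35 in CHIR_11-16. E2f1, an activating E2F factor, read 0.03 and -0.04 in WiBi_0-11, -0.45 and -0.40 in WiBi_0-16, 0.71 and 0.15 in CHIR_8-16, and 0.28 and 0.44 in CHIR_11-16. All 4 agonist arrays of each gene lay above all 4 inhibitor-only arrays, and these were the only 2 members with their highest mean in CHIR_8-16. That order rested on small gaps: the difference CHIR_8-16 minus CHIR_11-16 was 0.02 ± 0.284 (SE, limma adjusted p = 1.0, and 0.98 with the slide block) for Ccne1 and 0.07 ± 0.226 (SE, limma adjusted p = 1.0, and 0.909 with the slide block) for E2f1, scaling to the array median turned both signs, and the second Ccne1 probe gave -0.17. Gmnn, the gene of the licensing inhibitor geminin, had means of -1.05 ± 0.59 (SD, n = 4) and -0.54 ± 0.17 in the inhibitor-only and the agonist arrays.

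Brca1, a factor of homologous recombination and replication fork protection, was dim and was well above background in both CHIR_11-16 arrays, 1 CHIR_8-16 array and no inhibitor-only array. It read -5.60 and -5.92 in WiBi_0-11, -6.30 and -6.03 in WiBi_0-16, -5.52 and -5.67 in CHIR_8-16, and -4.90 and -4.92 in CHIR_11-16. CHIR_11-16 was at least 1.26-fold above WiBi_0-11 and at least 1.53-fold above WiBi_0-16, the dim groups being set at the lowest signal well above background. Brca1 passed the filter on dim signals only through CHIR_11-16, so the filter favoured a higher value in that group. These folds therefore describe the arrays only, and no test is given for this gene.

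The G2 and mitosis genes are taken from mitotic entry to cell division. Ccnb1 and Ccnb2 encode B-type cyclins, the activators of CDK1 at mitotic entry. Ccnb1 read 1.91 and 2.50 in WiBi_0-11, 1.68 and 2.12 in WiBi_0-16, 2.56 and 2.29 in CHIR_8-16, and 3.00 and 2.91 in CHIR_11-16. The probe of Ccnb2 (chr9:70255671-70255730, minus strand, mm9) read 1.76 and 1.84 in WiBi_0-11, 1.44 and 1.52 in WiBi_0-16, 2.41 and 2.28 in CHIR_8-16, and 2.58 and 2.33 in CHIR_11-16. In Ccnb2 the 4 agonist arrays lay between 2.28 and 2.58 and the 4 inhibitor-only arrays between 1.44 and 1.84, while the 2 agonist groups overlapped each other. Ccna2, the gene of cyclin A2, had means of 2.05 ± 0.34 (SD, n = 2) in WiBi_0-16 and 2.88 ± 0.14 in CHIR_11-16.

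Several members are mitotic kinases. Plk1, the polo-like kinase of centrosome maturation and spindle assembly, read 2.56 and 2.67 in WiBi_0-11, 2.15 and 2.45 in WiBi_0-16, 3.25 and 2.59 in CHIR_8-16, and 3.31 and 3.11 in CHIR_11-16. CHIR_8-16 replicate 1 stood with CHIR_11-16 and its replicate 2 with the inhibitor-only cultures. Bub1b, the gene of the checkpoint protein BubR1, read -0.31 and -0.32 in WiBi_0-11, -0.72 and -0.53 in WiBi_0-16, 0.40 and -0.25 in CHIR_8-16, and 0.54 and 0.53 in CHIR_11-16, with no overlap between the arms. Aurka, a centrosomal kinase, had means of 1.55 ± 0.28 (SD, n = 4) and 2.17 ± 0.27 in the inhibitor-only and the agonist arms, again without overlap. Nek2, a centrosome kinase, departed from the others. It read -1.36 and -1.16 in WiBi_0-11, -1.80 and -1.57 in WiBi_0-16, -1.45 and -1.81 in CHIR_8-16, and -0.94 and -0.99 in CHIR_11-16, so that CHIR_8-16 lay below WiBi_0-11 and beside WiBi_0-16.

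Aurkb, the kinase of the chromosomal passenger complex, was dim and moved with the slide. It read -5.41 and -4.00 in WiBi_0-11, -7.74 and -4.09 in WiBi_0-16, -5.94 and -3.54 in CHIR_8-16, and -4.79 and -3.51 in CHIR_11-16, and was not well above background on the slide 2 arrays of WiBi_0-11, CHIR_8-16 and WiBi_0-16. Its slide 3 minus slide 2 difference was 2.19 (limma adjusted p = 0.0147), and it was the only member for which that difference passed the test, beside 8781 of 25746 genes. Because of its dim signals, its differences between groups are given as measured values, with no test. Birc5, which encodes survivin, a partner in the same complex, had means of 2.99 ± 0.36 (SD, n = 2) in WiBi_0-16 and 3.72 ± 0.22 in CHIR_11-16, and a slide difference of 0.19.

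The remaining genes described by sample belong to chromosome structure and the kinetochore. Mki67 encodes the chromosome surface protein Ki-67, the usual marker of cycling cells, and it read 3.53 and 3.30 in WiBi_0-11, 3.00 and 3.58 in WiBi_0-16, 3.99 and 3.21 in CHIR_8-16, and 4.17 and 3.82 in CHIR_11-16. Top2a, topoisomerase II alpha, untangles sister chromatids, and its probe (chr11:98855522-98855581, minus strand, mm9) read 1.26 and 1.42 in WiBi_0-11, 0.71 and 1.33 in WiBi_0-16, 1.46 and 1.40 in CHIR_8-16, and 2.04 and 2.05 in CHIR_11-16. CHIR_11-16 stood apart from the other 6 arrays in Top2a, whereas Mki67 in CHIR_8-16 replicate 1 reached the CHIR_11-16 values. Cenpa, the histone variant that marks centromeres, read 0.81 and 0.98 in WiBi_0-11, -0.05 and 0.48 in WiBi_0-16, 1.28 and 1.10 in CHIR_8-16, and 1.62 and 1.69 in CHIR_11-16. Its groups kept 1 order without overlap, CHIR_11-16 over CHIR_8-16 over WiBi_0-11 over WiBi_0-16. Cenpf read -3.78 and -4.31 in WiBi_0-11, -4.15 and -3.84 in WiBi_0-16, -3.44 and -4.06 in CHIR_8-16, and -3.20 and -3.49 in CHIR_11-16, with the inhibitor-only groups intermingled.

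The other 13 mitotic genes were alike in pattern by their brightest probes and are given together. Bub1 and Ttk are kinases of the spindle checkpoint, which holds back Cdc20, the activator of the anaphase-promoting complex, for which Ube2c is the ubiquitin-conjugating enzyme. Tpx2 and Nusap1 act in spindle assembly, Kif11 is the motor that pushes the spindle poles apart, and Cenpe is a kinetochore motor. Kif20a, Kif23, Prc1 and Ect2 act at the central spindle and in cytokinesis, and Melk is a kinase expressed in dividing progenitors. Both CHIR_11-16 arrays lay above the other 6 for 11 of these 13 genes, against 4% of all genes, and for Cdc20 and Ect2 CHIR_8-16 replicate 1 was above 1 of them. WiBi_0-16 replicate 1 was the lowest array for 13 of 13. The differences CHIR_11-16 minus WiBi_0-16 ran from 0.74 (Prc1) to 1.23 (Melk), with limma adjusted p of 0.348 to 0.41, and of 0.102 to 0.162 with the slide block. Those of the agonist over the inhibitor-only arrays ran from 0.31 (Nusap1) to 0.71 (Melk). A second Tpx2 probe gave smaller values than the brightest, 0.23 against 0.89 in CHIR_11-16 minus WiBi_0-16. For agonist minus inhibitor-only it gave 0.01 against 0.42. Across all 41 members the range over the 8 cultures was 0.81 (Mcm7) to 4.23 (Aurkb), with a median of 1.17.

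**Figure D2:**
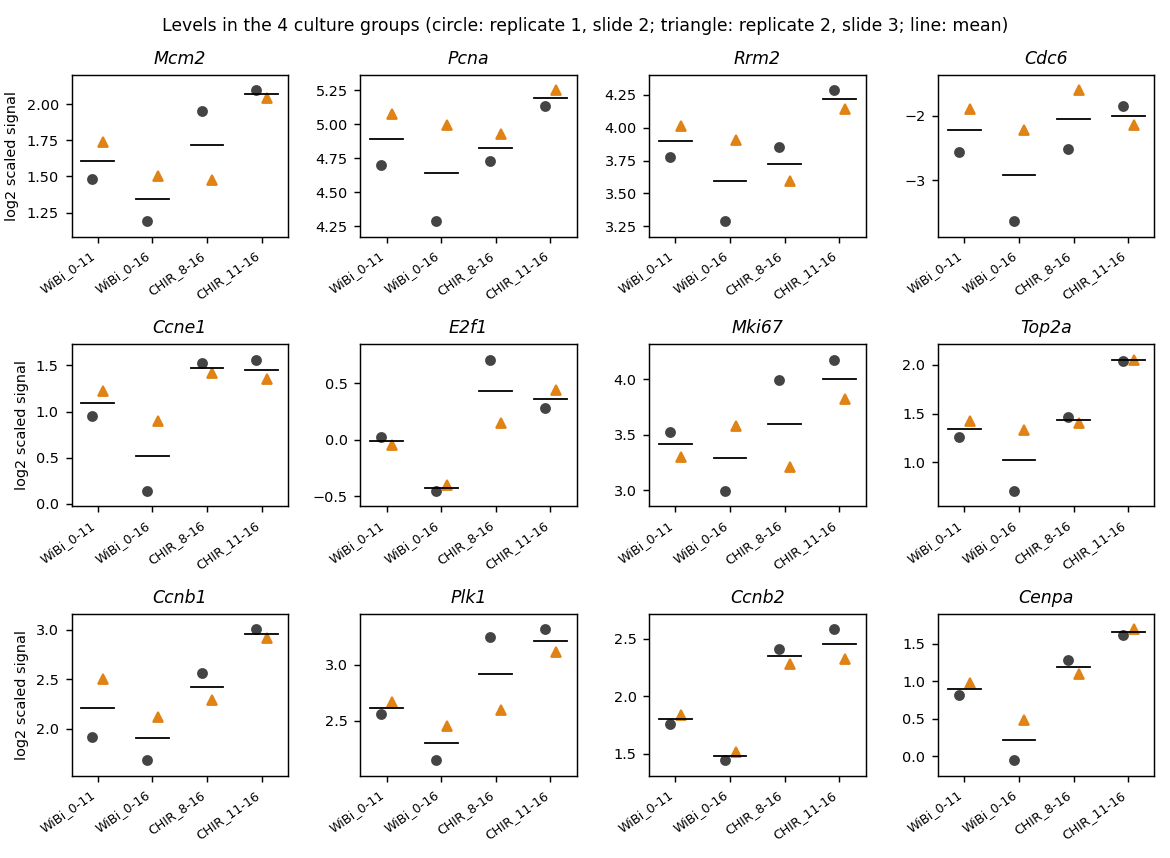
Log2 scaled signal (vertical axis) of 12 genes in the 4 culture groups, with a circle for replicate 1 on slide 2, a triangle for replicate 2 on slide 3, and a line for the mean. Top2a and Cenpa are highest on both CHIR_11-16 arrays, while Pcna, Rrm2 and Cdc6 show a WiBi_0-16 replicate 1 far below its partner.

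Adding the agonist at day 11 in place of ending treatment there was addressed by CHIR_11-16 minus WiBi_0-11. All 41 members were higher in CHIR_11-16, with a median log2 difference of 0.47, or 1.38-fold, against a median of -0.01 over all genes and 48.8% of all genes higher (51.2% lower). Among the 39 members measured in more than 1 group, the checkpoint gene Bub1b had the largest difference. It differed by 0.85 ± 0.248 (SE, limma adjusted p = 1.0, and 0.316 with the slide block), with 0.85 on slide 2 and 0.84 on slide 3. Ccnb1 differed by 0.75 ± 0.273 (SE, limma adjusted p = 1.0, and 0.357 with the slide block), and Mcm2 by 0.46 ± 0.235 (SE, limma adjusted p = 1.0). Cdc6 had the smallest difference, 0.23 ± 0.558 (SE, limma adjusted p = 1.0), and its sign turned without WiBi_0-11 replicate 1. The 2 groups did not overlap for 38 of the 39 members other than Brca1 and Aurkb, against 18.0% of all genes higher and 17.0% lower. On both slides 40 of all 41 were higher, against 33.1% of genes that were higher and 33.3% that were lower on both. No member passed an adjusted p of 0.05 in limma with or without the slide block, beside 0.0% and 0.0117% of all genes. Of the same 39 members, 7 and 11 had an unadjusted limma p under 0.05 without and with the block, all higher. Of all genes, 2.63% and 6.74% were higher at that p and 2.12% and 5.73% lower.

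Ending the inhibitors at day 11 or at day 16 was compared in WiBi_0-16 minus WiBi_0-11. Here 40 of 41 members were lower with the longer treatment, with a median of -0.32, while 49.8% of all genes were lower and 50.2% higher. Cenpa differed by -0.69 ± 0.227 (SE, limma adjusted p = 1.0, and 0.41 with the slide block) and Ccne1, the cyclin E1 gene, by -0.57 ± 0.284 (SE, limma adjusted p = 1.0). A second Ccne1 probe gave 0.19, of the opposite sign. Cdc6 differed by -0.70 ± 0.558 (SE, limma adjusted p = 1.0). Cenpf was the 1 member above 0, at 0.05 ± 0.306 (SE, limma adjusted p = 1.0), and it was below 0 under each of the 4 other scalings. The sign was negative on both slides for 39 members, against 30.1% of all genes. The groups did not overlap for 18 of the 39 members other than Brca1 and Aurkb, all lower, against 16.4% of genes lower and 12.1% higher. No member passed the test with or without the block, beside 0.0% and 0.0117% of all genes, and 1 member had an unadjusted p under 0.05 in each fit, beside 1.51% and 4.62% of genes that were lower and 1.15% and 6.22% that were higher. The size rested largely on WiBi_0-16 replicate 1: without it the median was -0.10, with 31 members lower, against -0.58 without replicate 2, and Aurkb (-1.21 with both arrays, 1 of them not well above background) and Cdc6 changed sign, to 0.62 and 0.01.

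The comparison of the agonist at day 11 with continued inhibition, CHIR_11-16 minus WiBi_0-16, gave the largest shift. All 41 members were higher in CHIR_11-16, with a median of 0.86, or 1.81-fold, against -0.04 over all genes and 45.6% of genes higher. Cenpa differed by 1.45 ± 0.227 (SE, limma adjusted p = 0.305, and 0.0766 with the slide block), with 1.68 on slide 2 and 1.22 on slide 3. Top2a differed by 1.03 ± 0.239 (SE, limma adjusted p = 0.348, and 0.0983 with the slide block) and Ccnb1 by 1.05 ± 0.273 (SE, limma adjusted p = 0.37, and 0.112 with the slide block). Among S-phase genes Mcm2 differed by 0.72 ± 0.235 (SE, limma adjusted p = 0.404, and 0.155 with the slide block) and Pcna by 0.55 ± 0.284 (SE, limma adjusted p = 0.609, and 0.169 with the slide block). Among the 39 members measured in more than 1 group, Cenpa had the largest difference and Mcm7 the smallest, 0.43 ± 0.251 (SE, limma adjusted p = 0.663). Aurkb, well above background on 1 of the 2 WiBi_0-16 arrays, read 1.77 higher, and -0.06 without WiBi_0-16 replicate 1. All 41 were higher on both slides, against 31.9% of genes that were higher and 38.8% that were lower on both. Groups did not overlap for all 39 members other than Brca1 and Aurkb, all higher, against 21.4% of genes higher and 18% lower. No member passed an adjusted p of 0.05 with or without the block, nor did any gene on the array (0.0% in both fits). An unadjusted limma p under 0.05 was reached by 32 of the same 39 members without and 36 with the block, all higher. Of all genes, 6.89% and 12% were higher at that p and 3.25% and 10.4% lower. Without WiBi_0-16 replicate 1 the median over all 41 was 0.60 and 40 members were higher.

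With the agonist from day 8, the shift over WiBi_0-16 was smaller and differed between slides. All 41 members were higher in CHIR_8-16, with a median of 0.45, against 0.01 over all genes and 51.1% of genes higher. For Tpx2 this held by its brightest probe (0.45) and not by a second probe (-0.09). The median was 0.85 on slide 2 but 0.03 on slide 3, and 24 members were higher on both slides, against 33.2% of genes. Cenpa differed by 0.98 ± 0.227 (SE, limma adjusted p = 0.231, and 0.0694 with the slide block), Ccnb2 by 0.87 ± 0.172 (SE, limma adjusted p = 0.196, and 0.0616 with the slide block) and Ccne1 by 0.96 ± 0.284 (SE, limma adjusted p = 0.275, and 0.104 with the slide block). The groups did not overlap for 20 of the 39 members other than Brca1 and Aurkb, all higher, against 18.2% of genes higher and 16.7% lower. Aurkb, well above background on 1 array of each group, read 1.17 higher, and its sign turned without CHIR_8-16 replicate 2 (-0.02) or without WiBi_0-16 replicate 1 (-0.65). Nek2 and Mcm7 had the smallest differences, 0.05 ± 0.203 (SE, limma adjusted p = 1.0) and 0.05 ± 0.251 (SE, limma adjusted p = 1.0). No member was called without or with the block, beside 0.0155% and 1.26% of all genes. Of the same 39 members, 6 and 7 had an unadjusted limma p under 0.05, beside 7.43% and 13.9% of genes that were higher. Without WiBi_0-16 replicate 1 the median was 0.20 and 35 members were higher, without CHIR_8-16 replicate 1 it was 0.29 and 34 were, and without WiBi_0-16 replicate 2 it was 0.70.

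Against WiBi_0-11 the day 8 agonist cultures showed no common direction. In CHIR_8-16 minus WiBi_0-11, 28 members were higher, with a median of 0.13 against 0.05 over all genes with 55.8% of genes higher and 44.2% lower. Ccnb2 differed by 0.55 ± 0.172 (SE, limma adjusted p = 0.426, and 0.134 with the slide block) and E2f1 by 0.43 ± 0.226 (SE, limma adjusted p = 0.621, and 0.279 with the slide block). At the other end Nek2 differed by -0.37 ± 0.203 (SE, limma adjusted p = 0.642, and 0.304 with the slide block) and Mcm4 by -0.22 ± 0.251 (SE, limma adjusted p = 0.897). The members' median was 0.35 on slide 2 and -0.11 on slide 3, and 12 members were higher and 2 lower on both slides, against 36.9% and 28.8% of genes. No member was called with or without the block, beside 0.0117% and 0.369% of all genes, and Ccnb2 alone had an unadjusted p under 0.05, beside 4.4% and 12.5% of genes that were higher and 5.25% and 9.6% that were lower. Without CHIR_8-16 replicate 1 the median was -0.02, without its replicate 2 it was 0.28, and without WiBi_0-11 replicate 1 or replicate 2 it was 0.01 or 0.24.

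The 2 agonist schedules were compared directly in CHIR_8-16 minus CHIR_11-16. With the earlier agonist 39 of 41 members were lower, with a median of -0.41 against 0.03 over all genes with 45.4% of genes lower and 54.6% higher. Nek2 differed by -0.67 ± 0.203 (SE, limma adjusted p = 1.0, and 0.331 with the slide block) and Top2a by -0.62 ± 0.239 (SE, limma adjusted p = 1.0, and 0.383 with the slide block). Ccnb2 by contrast differed by -0.11 ± 0.172 (SE, limma adjusted p = 1.0). The sign was negative on both slides for 37 members, against 27.4% of genes. Groups did not overlap for 26 of the 39 members other than Brca1 and Aurkb, all lower, against 14.9% of genes lower and 11.3% higher. No member was called without or with the block, beside 0.0% and 0.00777% of all genes. Of the same 39 members, 2 and 8 had an unadjusted limma p under 0.05, all lower. Of all genes, 1.96% and 4.7% were lower at that p and 1.86% and 6.94% higher. Scaling to the array median moved the median of all genes to -0.12 in this comparison and that of the members to -0.56, and without CHIR_8-16 replicate 1 the members' median was -0.61.

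When the 4 agonist arrays were set against the 4 inhibitor-only arrays, 1 member passed the test with the slide block. All 41 members were higher with the agonist, with a median of 0.47, or 1.39-fold, against 0.00 and 50.0% of all genes. Ccnb2 was 2.40 ± 0.13 (SD, n = 4) against 1.64 ± 0.19, a difference of 0.76 or 1.69-fold, with an SE of 0.13 and limma adjusted p = 0.0416 with the block and 0.081 without it, higher in 4 of 4 agonist arrays. It was the 1 member called with the block, when 3.33% of all genes were, and 0 were called without it, when 0.00777% were. Leaving out any of the 8 arrays in turn left no member called in either fit, and of all 25746 genes 0 to 5 were then called with the block in place of 857. With the block and median scaling the adjusted p of Ccnb2 was 0.0734. Bub1b differed by 0.77 ± 0.206 (SE, limma adjusted p = 0.13, and 0.0767 with the slide block) and Cenpa by 0.87 ± 0.25 (SE, limma adjusted p = 0.148, and 0.095 with the slide block), and the arms did not overlap for either. Nek2 had the smallest difference, 0.17 ± 0.234 (SE, limma adjusted p = 0.882). The arms did not overlap for 9 members (Mcm3, Tyms, Ccne1, E2f1, Ccnb2, Bub1b, Aurka, Cenpa and Kif23), all higher with the agonist. Of all genes, 6.71% did not overlap and were higher, and 5.6% did not overlap and were lower. Of the 39 members other than Brca1 and Aurkb, 18 had an unadjusted limma p under 0.05 without the block and 21 with it. All were higher, beside 8.68% and 12.5% of genes that were higher and 6.65% and 10.1% that were lower. Without WiBi_0-16 replicate 1 the median was 0.33 and all 41 were higher. In that fit 10 of the 41, counted with Brca1 and Aurkb, had an unadjusted limma p under 0.05 without the block. The arms mix 2 schedules each, and the median was 0.75 on slide 2 and 0.20 on slide 3.

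**Figure D3:**
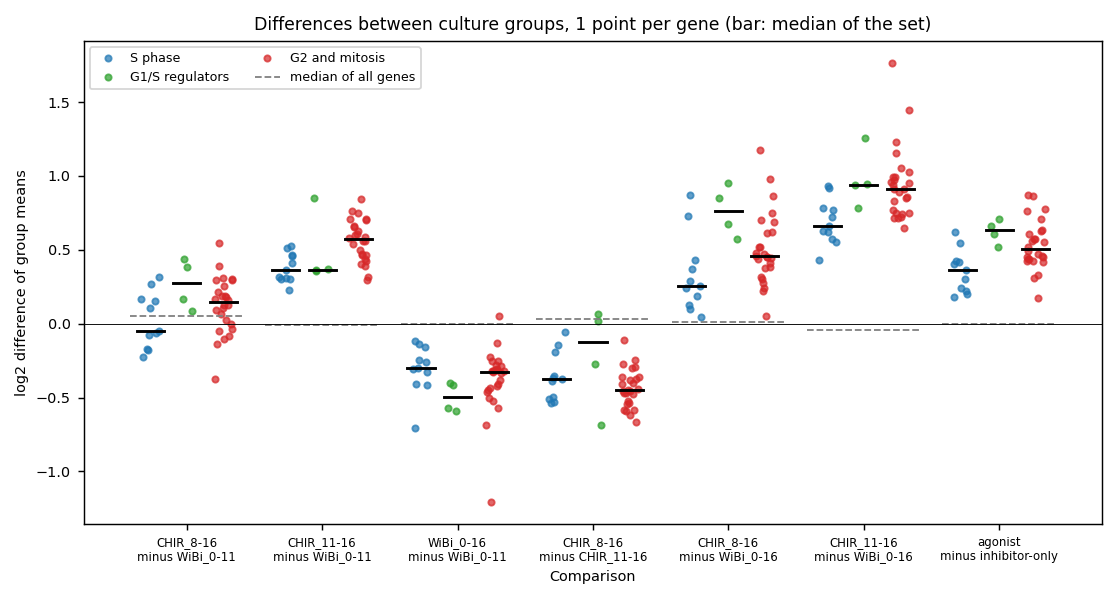
Each point is the log2 difference of a member between 2 culture groups (vertical axis) in 1 of 7 comparisons (horizontal axis), coloured by gene set, with a black bar at the set's median and a dashed line at the median of all genes. All points lie above 0 in the comparisons of CHIR_11-16 with WiBi_0-11 and with WiBi_0-16, and points spread to both sides of 0 for CHIR_8-16 minus WiBi_0-11.

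The slides differed in the size of these differences and, for the day 8 cultures, in their presence. For CHIR_11-16 the members' median over WiBi_0-11 was 0.65 on slide 2 and 0.38 on slide 3, and over WiBi_0-16 it was 1.17 and 0.58. The 2 arrays of a group were closest in CHIR_11-16, with a median SD over the members of 0.09, and farthest apart in WiBi_0-16, with 0.35. The SD was 0.16 in WiBi_0-11 and 0.21 in CHIR_8-16. The members themselves did not differ much between slides on average, with a median slide 3 minus slide 2 difference of 0.05 against 0.11 over all genes.

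**Figure D4:**
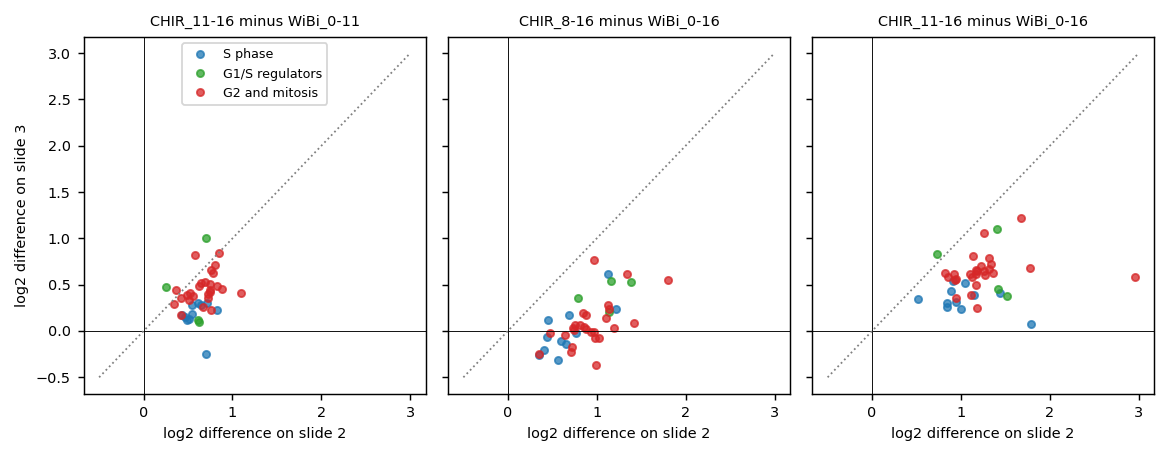
Log2 difference of each member on slide 2 (horizontal axis) and slide 3 (vertical axis) in 3 comparisons; the dotted line marks equal values. For CHIR_11-16 minus WiBi_0-16 all 41 points are positive on both axes, whereas for CHIR_8-16 minus WiBi_0-16 the points are centred near 0.03 on slide 3.

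S-phase and mitotic genes differed in the same direction, in their medians, in the comparisons of CHIR_11-16 or the agonist arm with inhibitor-only cultures. In CHIR_11-16 minus WiBi_0-16 the median was 0.66 over the 11 S-phase genes and 0.91 over the 26 G2 and mitosis genes, with ranges of 0.43 to 0.93 and 0.65 to 1.77. The 1.77 was Aurkb, which passed the filter on dim signals only through CHIR_11-16. Cenpa, at 1.45, was the largest of the other mitotic genes. Without WiBi_0-16 replicate 1 the 2 medians were 0.40 and 0.66. On slide 2 the medians were 0.94 and 1.17, and on slide 3 they were 0.35 and 0.62. In CHIR_11-16 minus WiBi_0-11 they were 0.36 and 0.57, and the S-phase median was 0.23 without WiBi_0-11 replicate 1. For agonist minus inhibitor-only they were 0.36 and 0.51, and the S-phase median was 0.24 without CHIR_11-16 replicate 1 and 0.19 without WiBi_0-16 replicate 1. In this comparison the 2 medians were 0.61 and 0.78 on slide 2 but 0.07 and 0.25 on slide 3. For CHIR_8-16 minus WiBi_0-16 they were 0.26 and 0.46, with 0.60 and 0.91 on slide 2 and -0.07 and 0.03 on slide 3. Without WiBi_0-16 replicate 1 the latter comparison gave 0.03 and 0.21. The 2 comparisons of the remaining cultures with WiBi_0-11 gave sets whose medians depended on single arrays. In WiBi_0-16 minus WiBi_0-11 the medians were -0.30 for S phase and -0.32 for mitosis, but 0.00 and -0.16 without WiBi_0-16 replicate 1, -0.60 and -0.57 without its replicate 2, and -0.15 for S phase without WiBi_0-11 replicate 2. With normexp they were -0.20 and -0.31, and in the deposited table -0.21 and -0.33. For CHIR_8-16 minus WiBi_0-11 the S-phase median was -0.05, with 5 of 11 genes higher, and the mitotic median 0.14, with 19 of 26 higher. Leaving out 1 array of those groups in turn gave -0.17 to 0.13 for S phase and -0.02 to 0.35 for mitosis, and the S-phase median was 0.04 both with normexp and in the deposited table. The 4 G1/S regulators had medians of 0.94 and 0.37 in CHIR_11-16 minus WiBi_0-16 and minus WiBi_0-11. Brca1, which also passed the filter only through CHIR_11-16, is among these 4. The difference between the sets was not tested, and the 3 sets are read by probes of unequal brightness.

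Other genes of the same pathways were counted from lists. Of 29 measured replication genes outside the members, 26 were higher in CHIR_11-16 than in WiBi_0-16, with a median of 0.62, and of 31 mitotic genes all 31 were, with a median of 0.80. Orc1, an origin recognition subunit, Kif15, a spindle motor, and Cdc25c, the phosphatase that activates CDK1, had differences of 1.32 ± 0.29, 1.20 ± 0.31 and 1.10 ± 0.18 (SE; limma adjusted p = 0.32, 0.371 and 0.305). In CHIR_11-16 minus WiBi_0-11 the difference of Orc1 was -0.90. With the scaling used here none of these replication and mitosis genes passed the test in any of the 7 comparisons, with or without the block. Of 18 G1 cyclin, CDK and E2F/RB genes 13 were higher with the agonist, with a median of 0.32. With the block Ccnd1 (cyclin D1, itself a known Wnt target), E2f2 and E2f3 rose, by 1.32, 0.70 and 0.62 (limma adjusted p = 0.0442, 0.0473 and 0.0464), and without it none passed. These 3 stand among the 3.33% of all genes called in that fit, and none of the genes in the lists was called with or without the block when any 1 of the 8 arrays was left out.

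Genes that brake the cycle or accompany its exit formed another list. Of 13 such genes 11 were higher with the agonist, with a median of 0.67, and 5 rose in the fit with the block, where 3.33% of all genes were called. Gadd45a, a stress- and differentiation-linked growth arrest gene, rose by 1.50 ± 0.17 (SE, limma adjusted p = 0.0325 with the block and 0.053 without). Gadd45g rose by 1.18 (adjusted p = 0.0384), Gadd45b by 0.73 (0.0464), the antiproliferative gene Btg2 by 0.69 (0.0395) and Cdkn2c, the CDK4/6 inhibitor p18, by 0.91 (0.0492), all in limma with the block. In CHIR_8-16 minus WiBi_0-11, where the members had a median of 0.13, the same list had 0.49, with 10 of 13 higher. Without the block none of its genes was called under the scaling used here, Gadd45a was with normexp, and 4 were with a trended prior, where 2.12% of all genes were.

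Marker lists of other cells also differed in these comparisons, and their part in the cell cycle values was not tested. Of 13 neuron markers 9 were lower with the agonist, with a median of -0.20, and the log2 of their summed level was 8.96 to 9.07 in CHIR_11-16, 9.11 to 9.15 in CHIR_8-16, 9.25 to 9.28 in WiBi_0-11 and 9.22 to 9.35 in WiBi_0-16. All 6 intermediate progenitor markers were higher with the agonist, with a median of 0.68 and a summed level of 5.42 to 5.93 in the agonist arrays against 4.36 to 5.04 in the others. Gadd45g and Btg2 of this list are also in the list of cell cycle exit. With the block 4 of the 6 genes were called (Neurog2, Insm1, Gadd45g and Btg2), in a fit that called 3.33% of all genes. In the fit without the block none of the genes in these marker lists passed. Neurog2, a proneural factor, rose by 2.78 (limma adjusted p = 0.0362 with the block and 0.0639 without). Of 12 radial glia markers 8 were higher, with a median of 0.25, and Prom1 was the 1 called with the block. All 6 oligodendrocyte lineage markers were lower, with a median of -2.40, and Olig1 and Gpr17 fell by 3.85 and 3.44 (limma adjusted p = 0.0405 and 0.0325 with the block). Gpr17 was not well above background on either CHIR_8-16 array. Of 8 mesenchyme markers 6 were lower, with a median of -0.63, but 0.01 on slide 2 and -1.27 on slide 3. The 1 called with the block, Prrx1, rose, by 1.17 (limma adjusted p = 0.0451 with the block and 0.0812 without). The summed level of the list was highest in WiBi_0-11 (3.77 to 3.81) and 1.36 to 2.98 elsewhere. Endothelial, blood and microglial genes (5 measured of 9) had a median of -0.04 and pluripotency genes (6 measured of 8) one of 0.10, but the log2 of the summed level of the latter was 6.08 on 1 CHIR_8-16 array, replicate 1, against 2.75 to 3.76 on the other 7, with Tdgf1 the gene that differed most. The median of the G2 and mitosis genes was 1.38 on that array and 1.20 on replicate 2.

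In the embryo the members followed the tissue, in 1 array each and so without a test. Hippocampus was highest, then cortex, ventral telencephalon and midbrain, for 33 of 41 members, and cortex exceeded hippocampus for 7 more. Ccne1 was the exception, at 0.71 in cortex, 1.32 in hippocampus, 1.04 in ventral telencephalon and 1.10 in midbrain. The members' median was 2.09 in hippocampus, 1.74 in cortex, 1.59 in ventral telencephalon and 0.40 in midbrain. Hippocampus minus midbrain had a median of 1.58 over the members, with all 41 higher, against 0.05 and 53.5% over all genes, and cortex minus midbrain one of 1.37, with 40 higher, against 62.3%. For hippocampus minus midbrain the S-phase median was 1.26 and the mitotic median 1.68. Mki67 was 3.87 in hippocampus and 2.48 in midbrain, and Top2a 2.09 and 0.18. Radial glia markers were also higher in hippocampus than in midbrain, by a median of 1.08 with 10 of 12 higher, and neuron markers lower, by a median of -0.65 with 3 of 13 higher. Intermediate progenitor markers had the order of the members, with a log2 summed level of 6.56 in hippocampus, 6.35 in cortex, 5.08 in ventral telencephalon and 4.28 in midbrain. Mesenchyme markers were highest in midbrain (5.55), then hippocampus (4.27), cortex (1.90) and ventral telencephalon (1.29). The part of these cells in the members' levels was not tested.

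Set beside the cultures, the midbrain was below all 8 culture arrays for 32 members, against 34.2% of all genes, with a median of -1.11 from the culture mean. The hippocampus was above all 8 for 18 members, against 19.8% of genes, and the cortex for 7, against 23.2%. Ventral telencephalon lay within the culture range for 37 members, against 48.6% of genes. Ccnb2, the gene called with the agonist, was above every culture array in cortex (2.93) and hippocampus (3.05), and Rrm2 was within the culture range in both (3.81 and 3.65). The 4 embryonic arrays lay on a slide of their own, so that slide and source cannot be told apart in these values.

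**Figure D5:**
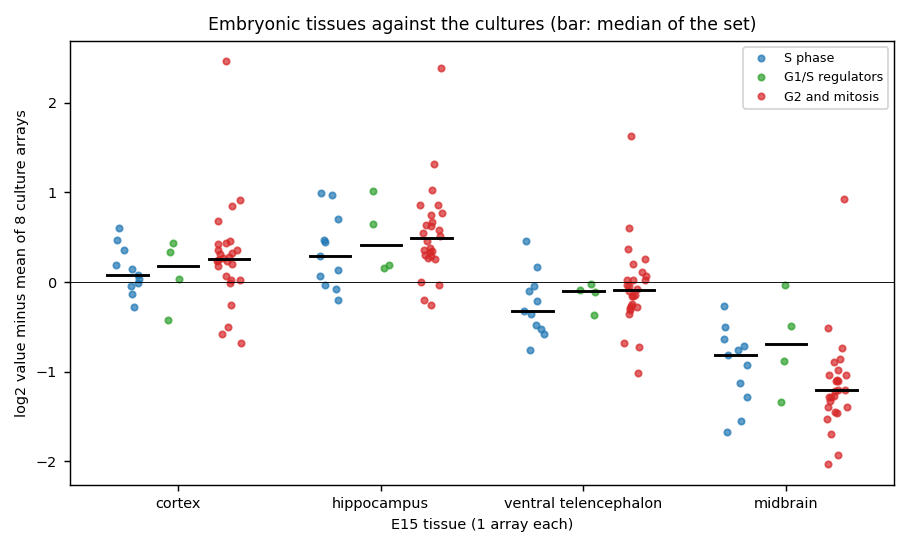
Log2 value of each member in the E15 tissues minus its mean over the 8 culture arrays (vertical axis), by tissue (1 array each) and gene set, with a bar at the median of the set. Most midbrain points lie below 0, with a median of -1.11 over the 41 members, and hippocampus points lie mostly above 0, with a median of 0.45.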

How the data were processed

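Labelled RNA of 8 cultures and 4 embryonic tissues was hybridised to 12 Agilent 1-colour arrays of design 028005, 1 sample per array. The intensity values were deposited by the authors as scanner output, where the processed signal is background-corrected and not normalized between arrays, per the file headers. The submitters' processing notes name Agilent Feature Extraction 9.1 and limma, whereas the file headers of the 12 arrays give Feature Extraction version 10.7.3.1. The authors also deposited a table of log2 values, used here as an alternative. Here log2 of the processed signal was scaled to each array's 75th percentile and spots of a probe were averaged, after spots marked as outliers were dropped. Of 55681 probes, 36427 passed a filter that required, in 1 or more of the culture groups, a signal well above background from each of its arrays, and an unmarked spot on all 8; the brightest per gene name gave 25746 genes. The culture files hold no gene names, which were joined from the embryo files by probe.

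Group means were fitted over the 8 culture arrays with limma 3.58.1 in R 4.3.3 (lmFit, eBayes), and Benjamini-Hochberg adjustment ran over all 25746 genes, with an adjusted p under 0.05 as the call. The script was tested on simulated data. Replicate number equals slide, and same-numbered arrays deviated together (correlations of 0.577 to 0.666 over all genes in all 6 pairs of groups), so the fit with slide as a block is given beside the other. Values by sample are given for 10 anchor genes, for the 2 members with the largest difference in each direction of each comparison and for members called in any comparison, and further genes were added for their role. The members and lists were chosen with earlier results of these data known. Alternatives changed the scaling, background correction, dim-probe filter, probe choice, samples in the fit, prior and replicates. The normexp alternative used the median signal, since the culture files do not hold the mean signal column. The number of arrays limits the precision.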

Additional observations from a re-analysis of the deposited data

How the results depend on the processing

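With settings other than leaving out an array, the members' median kept its sign, or lay at 0.00 (CHIR_8-16 minus WiBi_0-11, median scaling), and stayed between 0.00 and 0.15 in that comparison, 0.46 and 0.53 in CHIR_11-16 minus WiBi_0-11, -0.42 and -0.29 in WiBi_0-16 minus WiBi_0-11, -0.56 and -0.36 in CHIR_8-16 minus CHIR_11-16, 0.33 and 0.45 in CHIR_8-16 minus WiBi_0-16, 0.73 and 0.98 in CHIR_11-16 minus WiBi_0-16, and 0.42 and 0.49 for the agonist. Leaving out 1 array in turn gave medians of -0.02 to 0.28, 0.41 to 0.56, -0.58 to -0.10, -0.61 to -0.30, 0.20 to 0.70, 0.60 to 1.06 and 0.33 to 0.59 in the same order, and 0 called members throughout, with or without the replicate block. In CHIR_8-16 minus WiBi_0-16, 40 members were higher with normexp and 39 in the deposited table.

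For agonist minus inhibitor-only, 1 member (Ccnb2) was called with the replicate block (3.33% of all genes), 1 with a trended prior (2.12%), and, with the block added to another choice after the data were seen, 0 with median scaling (0.416%), 1 with quantile normalization (2.47%), 1 with normexp (4.79%), 1 in the deposited table (2.14%) and 2 with a trended prior (8.57%). In CHIR_8-16 minus WiBi_0-16 the block called 2 members with normexp (Ccnb2 and Cenpa; 4.89% of all genes), 1 in the deposited table (Cenpa; 2.31%) and 4 with a trended prior (10.2%). In CHIR_11-16 minus WiBi_0-16 it called 3 with normexp (Ccnb2, Cenpa and Bub1b; 1.74%), 1 in the deposited table (Cenpa; 0.505%) and 9 with a trended prior (5.72%). The cause of these changes was not tested.

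Of 863 values of single genes under alternatives, 838 kept their direction and side of the threshold, 6 passed it and 19 changed sign. Many could not change sign, because the block or another prior on all 8 arrays leaves a difference as it was. Without the block, so does leaving out an array of a group not compared. No member was called in the first fit, so these counts are not a measure of robustness. Cenpf in WiBi_0-16 minus WiBi_0-11 was -0.041 with median scaling, -0.0514 with quantile normalization, -0.0819 with normexp and -0.13 in the deposited table, and -0.21 to 0.32 without 1 array. Ccne1 in CHIR_8-16 minus CHIR_11-16 was -0.14 with median scaling, -0.073 with the mean of passing probes and -0.0864 to 0.13 without 1 array, and E2f1 was -0.0895 with median scaling and -0.21 to 0.35 without 1 array. Without 1 array Cdc6 ran from -0.11 to 0.56 in CHIR_11-16 minus WiBi_0-11 and from -1.41 to 0.0067 in WiBi_0-16 minus WiBi_0-11, and Aurkb ran from -3.04 to 0.62 in WiBi_0-16 minus WiBi_0-11, from -0.65 to 3.00 in CHIR_8-16 minus WiBi_0-16 and from -0.0602 to 3.59 in CHIR_11-16 minus WiBi_0-16. The cause was not tested. Dim signal limits Brca1 and Aurkb.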
